A study of Homo sapiens
Mus musculus with 8 samples.

Results

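The human genes that a Chromium 3′ v3 kit and a 5′ v1 kit counted at different levels in Jurkat-like cells are described here. Jurkat is a human line of leukemic CD4 T cells. It was 1 of the 4 lymphocyte lines that the study mixed in equal parts, with the human CD8 T cell line TALL-104, the mouse T cell line EL4 and the mouse B cell line IVA12. No line was treated or edited, and TALL-104 was grown with interleukin-2 before mixing. Molecules were counted by their unique molecular identifier (UMI), and the values are UMI counts per gene in a barcode, which stands for a cell. The cells were chosen by their own counts. A barcode was taken as Jurkat-like when it held at least 3000 UMIs, with more than 80% of them on human genes, less than 10% of the human UMIs on mitochondrially encoded genes and less than 0.02% on the TALL-104 markers NKG7, CST7 and CD8A together. This left 6725 of the 23565 barcodes with at least 3000 UMIs in the 6 libraries, of which 4799 came from 4 libraries of 3′ v3 and 1926 from 2 libraries of 5′ v1.

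Both kits copy messenger RNA from its poly(A) tail, and they differ in the end that carries the barcode. In a 3′ kit the barcode sits on the poly(T) primer, and the fragment that is read lies close to the tail. In a 5′ kit it sits on the oligonucleotide to which the reverse transcriptase switches at the start of the RNA, and the fragment that is read lies close to the first exon. A molecule is counted only where that fragment falls on 1 annotated gene, so a gene can be measured well from one end and poorly from the other. The comparison asks which genes and gene classes each end favours. A difference was retained only where it was alike in both cell preparations of 3′ v3.

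Going by the supplementary sample list, the 3′ v3 libraries came from cell mixtures F (replicates 1 and 3) and G (replicates 2 and 4), and both 5′ v1 libraries came from mixture B. The single 3′ v2 library that is shown beside them, replicate 2, came from mixture A. Libraries of a mixture are repeat captures of the same cells, so the p-values measure the spread between libraries, and the kits are compared over 2 mixtures against 1. Kit and mixture cannot be told apart.

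The human UMIs summed over Jurkat-like cells were 28857569, 1345063, 59090465 and 3511885 in replicates 1 to 4 of 3′ v3 (1386, 118, 2976 and 319 cells), and 26117626 and 11962542 in replicates 1 and 2 of 5′ v1 (1325 and 601 cells). The mixture G libraries stood apart from the rest. Their median cell held 11008 and 9980 human UMIs, against 17353 to 18911 in the other 4 libraries. Their median mitochondrial share was 8.85% and 8.68%, against 4.80% to 6.34%. The limit of 10% kept 96.8% to 99.6% of the human barcodes in the libraries of F and B, but only 52.2% and 44.5% of those in G. In G it left 54 and 119 cells with a share between 9% and 10%, just inside it, and 49 and 152 barcodes between 10% and 11%, just outside. Class medians below are therefore given with F and with G, and the genes retained had to differ with each of them. The limit on TALL-104 markers also cut the kits unequally. Of the human barcodes under the mitochondrial limit, it kept 86.7%, 60.8%, 86.4% and 67.9% in replicates 1 to 4 of 3′ v3. In replicates 1 and 2 of 5′ v1 it kept 95.4% and 94.8%.

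The cells carried the T lineage genes of Jurkat. All 10 of the 15 listed Jurkat markers that have a gene in the reference were detected in every library, with a summed level of 2601 to 3326 UMIs per 1000000 human UMIs (CPM). CD4 itself was close to absent, at 0.693 to 3.72 CPM. The T cell receptor chains could not be measured, because no constant region and only 1 variable segment (not tested) has a gene in the reference used for counting. TALL-104 markers were limited by the choice of cells, which capped NKG7, CST7 and CD8A. The 15 listed genes, those 3 included, summed to 173, 110, 153 and 106 CPM in the 4 libraries of 3′ v3, and to 71.9 and 70.1 CPM in 5′ v1. From 0 to 5 of them were at 0 in a library of 3′ v3, and 2 and 3 in 5′ v1. Of 6 markers of other blood cells CD79A was at 43.6 to 58.0 CPM in 3′ v3 and 31.9 and 30.3 CPM in 5′ v1, and the other 5 held at most 4 UMIs in a library. The median share of mouse UMIs in a Jurkat-like barcode was 1.23% to 3.64% in 3′ v3 and 0.315% and 0.531% in 5′ v1. One barcode was shared between replicates 1 and 3 of 3′ v3, none between 3′ v3 and 5′ v1, and 1 between the 3′ v2 library and replicate 2 of 5′ v1.

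Over all genes, 2130 of 14045 human genes tested (15.2%) were called between the kits, at an adjusted p under 0.05 in edgeR's quasi-likelihood test with Benjamini-Hochberg adjustment. Of these, 1046 (7.45%) were higher in 3′ v3 and 1084 (7.72%) higher in 5′ v1. Called genes with a difference of at least 1 on the log2 scale (2-fold) in the same direction with F and with G were retained. These were 1339 genes (9.53%), 775 higher in 3′ v3 (5.52%) and 564 higher in 5′ v1 (4.02%). As the genes were selected on this contrast, the values below describe them and test nothing further. Of the remaining called genes, 789 had the same sign with both preparations but were smaller than 2-fold with at least 1 of them, and 2 had opposite signs or no difference. SEZ6L2 lay just inside the size limit with a weaker difference of 1.0005, and ZNF747 just outside with 0.9998.

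With the kit held fixed, the preparations also differed. Between F and G of 3′ v3, 7467 of 13357 genes (55.9%) were called by the same edgeR test, 3951 of them higher in F (29.6%) and 3516 higher in G (26.3%). The difference was at least 2-fold for 3135 genes (23.5%). Over all genes tested, 31.5% had a difference of opposite sign with F and with G. The count of calls between the kits changed when libraries were left out. Without replicate 1 of 5′ v1 93 genes were called, without its replicate 2 176 genes, and 1181 genes were called without replicate 3 of 3′ v3. With 1 library of 5′ v1 left, the spread came from 3′ v3 alone and the lone library was assumed to vary like those, so these 2 counts say little about either library.

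**Figure D1:**
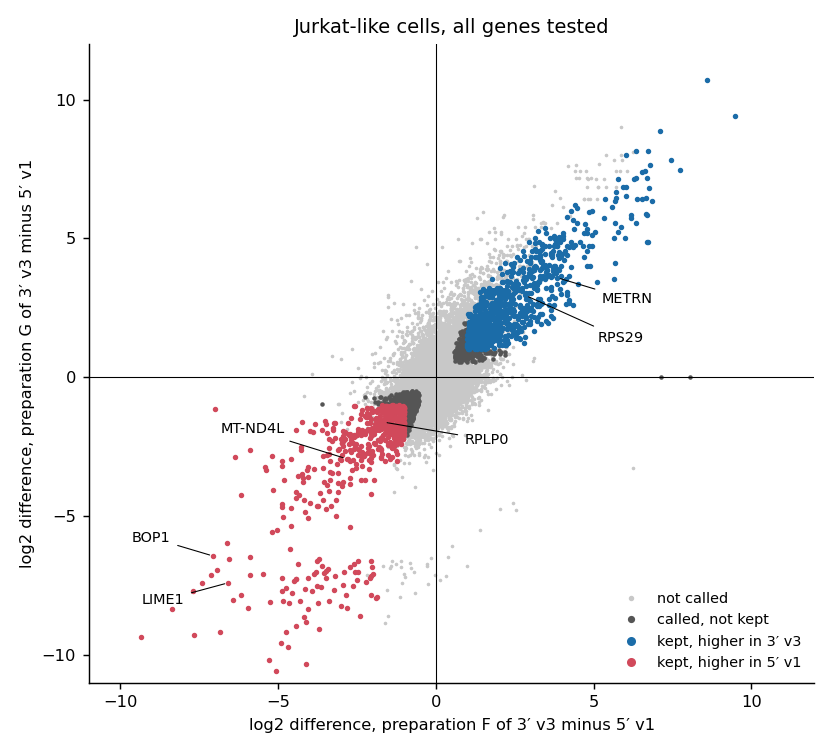
Each point is a human gene; the horizontal axis gives its log2 difference between preparation F of 3′ v3 and 5′ v1, and the vertical axis that between preparation G and 5′ v1. The 775 blue and 564 red genes are those retained in both preparations, dark grey genes were called but not retained, and the band of red points below −6 on the vertical axis holds genes with no or very few UMIs in G, whose fitted difference has no firm size.

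The strongest differences between the ends were large. They left no overlap between the libraries of the kits, which was also so for 6523 of all 14045 genes tested (46.4%). Among retained genes with at least 50 CPM in every library of the higher kit (77 in 3′ v3 and 83 in 5′ v1), the 10 with the largest difference in each direction are named. On the 3′ side they were METRN, MRPL12, JUND, CSNK2B, VEGFB, NDUFA9, CD81, ALYREF, ECH1 and BRI3. On the 5′ side they were BOP1, LIME1, PAGR1, ATP6V0C, NGRN, PDF, GABARAP, HMGN4, MTFP1 and MT-ND4L.

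METRN, which encodes the secreted protein meteorin, was in 3′ v3 at 63.7, 60.2, 54.7 and 69.5 CPM (replicates 1 to 4) and in 5′ v1 at 4.40 and 4.76 CPM. It differed by 3.71 ± 0.25 (SE) on the log2 scale, and by nearly the same amount with F (3.84) and G (3.59). JUND, a subunit of the AP-1 transcription factor, was at 150, 117, 126 and 138 CPM in 3′ v3 and at 9.80 and 11.6 CPM in 5′ v1. VEGFB, a vascular growth factor, was at 66.7, 84.8, 61.4 and 80.01 CPM against 7.35 and 7.86 CPM, and BRI3 at 119, 110, 97.0 and 107 CPM against 12.41 and 12.96 CPM. These 4 genes varied little among the 3′ v3 libraries beside the difference between the kits. JUND and BRI3 were still called between the preparations, higher in F than in G by 0.49 and 0.39 on the log2 scale.

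The other 6 were also higher in every 3′ v3 library, and each was higher in F than in G. MRPL12, a protein of the mitochondrial ribosome, was at 174 and 128 CPM in F, 74.3 CPM in both libraries of G, and 9.61 and 8.03 CPM in 5′ v1. NDUFA9, a subunit of respiratory complex I, was at 135 and 121 CPM in F, 63.2 and 54.7 CPM in G, and 11.3 and 9.95 CPM in 5′ v1. CSNK2B is the regulatory subunit of casein kinase 2 and CD81 a tetraspanin of the cell surface. CSNK2B was at 186 to 300 CPM in 3′ v3 and 20.9 and 22.7 CPM in 5′ v1, and CD81 at 194 to 307 CPM and 25.8 and 28.6 CPM. ALYREF, an adaptor of mRNA export, was at 280 to 569 CPM against 42.4 and 48.7 CPM. ECH1, an enzyme of fatty acid oxidation, was at 159 to 211 CPM against 24.5 and 18.3 CPM.

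On the 5′ side several genes were nearly uncounted from the 3′ end, and 7 of the 10 had a larger difference than any on the 3′ side. BOP1, a factor of ribosome assembly, was at 99.5 and 77.5 CPM in 5′ v1 and at 0.347, 0.743, 0.745 and 1.42 CPM in the 3′ v3 libraries, a fitted log2 difference of −7.01 ± 0.35. The BOP1 levels of the G libraries rest on 1 UMI and 5 UMIs, so the size of the difference with G is not firm. LIME1, an adaptor that binds the T cell kinase LCK, was at 80.8 and 96.0 CPM against 0.381, 1.49, 1.08 and 0.285 CPM. The LIME1 levels of the G libraries rest on 2 UMIs and 1 UMI. PAGR1, a cofactor of histone methyltransferase complexes, was at 115 and 125 CPM against 0.416, 0.743, 2.69 and 1.14 CPM.

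ATP6V0C, the proton-pore subunit of the vacuolar ATPase, was at 109 and 106 CPM in 5′ v1 and at 0.416 to 2.40 CPM in 3′ v3. NGRN was at 113 and 120 CPM against 1.49 to 4.25 CPM. PDF, the mitochondrial peptide deformylase, was at 98.6 and 101 CPM against 1.49 to 5.18 CPM. The 3′ v3 levels of these 3 lie far below the median of all genes tested, 16.6 CPM. GABARAP, a ubiquitin-like protein of autophagosomes, reached 170 and 177 CPM in 5′ v1 and only 4.12, 5.95, 22.7 and 8.54 CPM in 3′ v3. HMGN4, which binds nucleosomes, was at 97.7 and 108 CPM against 7.0 to 9.80 CPM, and MTFP1, a protein of mitochondrial fission, at 50.6 and 58.4 CPM against 2.56 to 6.69 CPM.

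The 3′ v2 library, which the choice of genes did not use, lay on the same side of 5′ v1 as 3′ v3 for these genes. On the 5′ side all 10 genes lay at or below 8.13 CPM in 3′ v2 except MT-ND4L, which was at 409 CPM there, 325.7 CPM on average in 3′ v3 and 2290 CPM in 5′ v1. On the 3′ side all 10 were above both 5′ v1 libraries in 3′ v2 as well. MRPL12 (127 CPM) lay within its 3′ v3 range, and the other 9, such as METRN (50.1 CPM), JUND (22.6 CPM) and CD81 (64.8 CPM), lay between the kits. The contrasts of 3′ v2 and of 3′ v3 share the 5′ v1 libraries, on which the genes were also chosen. On the scale log2(CPM + 1), the median difference from 5′ v1 over the 775 retained genes was 1.40 in 3′ v3 and 0.48 in 3′ v2, and over the 564 it was −1.28 and −1.43. Over all genes tested it was 0.097 and −0.50.

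**Figure D2:**
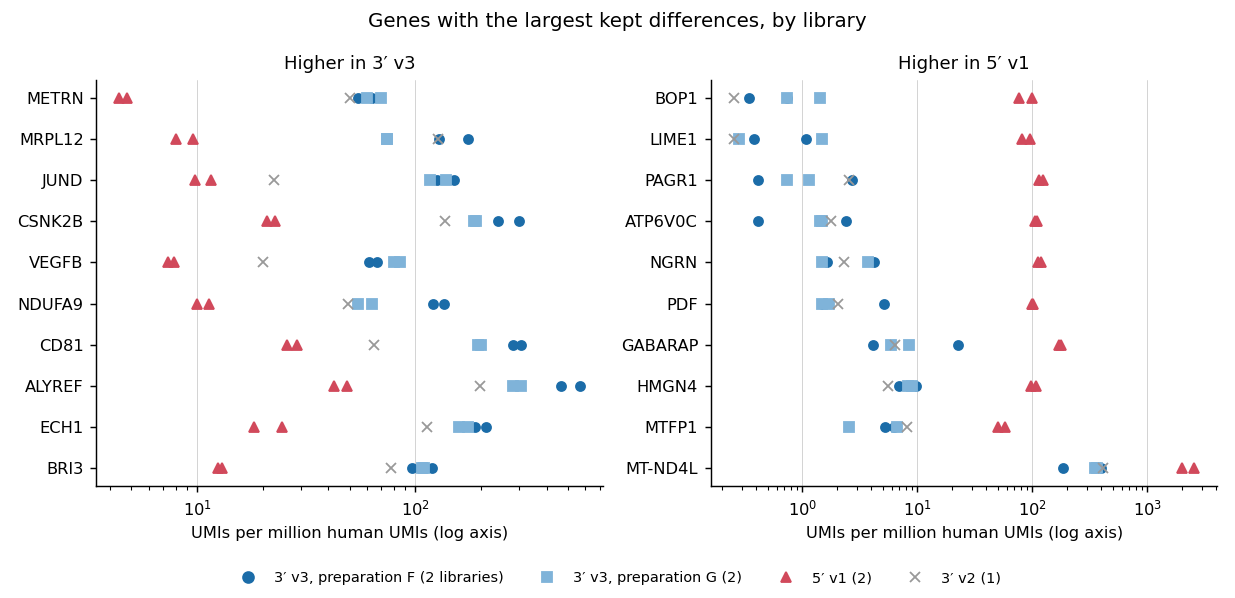
CPM on a log axis for the 10 retained genes with the largest difference in each direction, 1 point per library. Circles and squares are the 4 libraries of 3′ v3, triangles the 2 of 5′ v1 and the cross the library of 3′ v2. In each row the 3′ v3 and 5′ v1 symbols do not overlap, as for BOP1 with at most 1.42 against at least 77.5. Of all genes tested, 46.4% have no overlap.

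Of 50 gene classes listed by symbol or pathway, 46 had at least 5 genes tested. A class was called alike when its median log2 difference, minus that of all genes tested, had the same sign with both preparations and a size of at least 0.2 with each. The medians of all genes tested were 0.0036 with F and −0.020 with G. A class was alike in this sense in 8 cases, 7 of them higher in 3′ v3. The 8 include the readthrough and clone-named loci, whose medians support no difference of the class for the reasons given below. They also include the TALL-104 cytotoxic genes, some of which had set the limit for cells. The class medians carry no test.

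The only one of the 8 classes on the 5′ v1 side was that of readthrough loci. These are annotated genes whose transcripts run from an upstream gene into the gene behind it and whose name joins both, and 87 such loci were found in the gene list with both partners. Of 28 tested, 10 were called higher in 5′ v1 (35.7%, against 7.72% of all genes) and 3 higher in 3′ v3. The 10 lay at 0.580 to 4.26 CPM in 5′ v1 and at no more than 0.622 CPM in 3′ v3, and loci so low pass the filter on low counts only through the kit where they are high, so neither the share nor the median supports a difference of the class. The class median was −0.72 with F and −0.64 with G. With a mitochondrial limit of 5%, which left only 4 and 19 cells in the libraries of G, the kit median of the class turned from −1.08 to 0.32. Its share of all human UMIs was 0.0343% and 0.0353% in 5′ v1 and 0.0131%, 0.0178%, 0.0336% and 0.0161% in 3′ v3. SYS1-DBNDD2 was at 1.23 and 1.25 CPM in 5′ v1 (47 UMIs) and had no UMI in any library of 3′ v3, which makes it at least 38.2-fold higher in 5′ v1 when 3 UMIs over the 4 libraries are taken as the floor. ABHD14A-ACY1 had 32 UMIs in 5′ v1 and none in 3′ v3, at least 26.0-fold higher. NME1-NME2, the locus with the highest level, was not called. It was at 198 and 211 CPM in 5′ v1 and in 3′ v3 at 28.8, 49.1 and 46.7 CPM in replicates 1, 2 and 4, but at 217 CPM in replicate 3.

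The genes upstream in these loci had medians on the 3′ v3 side. Of 67 tested, 16 were called higher in 3′ v3 (23.9%, against 7.45% of all genes) and 3 higher in 5′ v1, and the median was 0.68 with F and 0.33 with G. PMF1, a kinetochore protein, was at 78.8, 56.5, 65.4 and 45.8 CPM in 3′ v3 and at 5.63 and 4.18 CPM in 5′ v1. P2RX5, an ATP-gated ion channel, was at 26.4, 29.7, 28.6 and 25.6 CPM against 3.25 and 4.18 CPM. The class share of UMIs did not separate the kits, at 0.567% and 0.607% in F, 0.358% and 0.332% in G and 0.401% and 0.385% in 5′ v1. Its most abundant gene, the mitochondrial chaperonin HSPE1, was at 1434 and 1261 CPM in F, 314 and 267 CPM in G, and 1070 and 988 CPM in 5′ v1.

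The genes downstream were called in both directions, 13 of 56 tested in each (23.2%, against 7.45% of all genes higher in 3′ v3 and 7.72% higher in 5′ v1). The 3 largest differences among all partners were downstream genes counted from the 5′ end. DBNDD2 was at 28.1 and 37.0 CPM in 5′ v1 and at 0.173, 0, 0.355 and 0.854 CPM in 3′ v3. GNG10, a gamma subunit of G proteins, was at 46.7 and 52.1 CPM against 1.00, 0.743, 2.39 and 1.71 CPM. RAB43, a small GTPase of vesicle transport, was at 3.83 and 4.43 CPM against 0, 0.743, 0.271 and 0.285 CPM.

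The partners of 6 loci, chosen after their values were seen, show how a pair can divide. SYS1, upstream of DBNDD2, differed by 0.62 ± 0.17 on the log2 scale where DBNDD2 differed by −6.58 ± 0.36. ISY1, a splicing factor upstream of RAB43, was at 43.6 to 51.4 CPM in 3′ v3 against 17.92 and 16.97 CPM, the reverse of RAB43. HNRNPUL2 was at 19.4 to 49.5 CPM in 3′ v3 and 7.35 and 8.28 CPM in 5′ v1, while BSCL2, which encodes seipin and lies behind it, was at 0.743 to 2.13 CPM and 25.5 and 26.2 CPM. ANKHD1 was likewise higher in 3′ v3 (11.6 to 21.6 CPM against 3.48 and 4.76 CPM), and EIF4EBP3, which binds the cap-binding factor eIF4E, higher in 5′ v1 (17.3 and 15.6 CPM against 0 to 2.47 CPM). COMMD3 was at 118, 72.1, 99.8 and 59.5 CPM in 3′ v3 and 12.6 and 13.5 CPM in 5′ v1, while the Polycomb gene BMI1 behind it was at 26.4 to 37.9 CPM and 35.5 and 43.1 CPM and was not called. In DNAJC25, upstream of GNG10, the libraries overlapped. Over the 47 loci with both partners tested, the upstream gene had the higher log2 difference in 31 (66.0%), with a median gap of 0.56. Pairs also divided the other way. MINOS1 differed by −0.53 and was not called, while NBL1 behind it differed by 3.35 and was called. Likewise RPL36A differed by −0.79, not called, and HNRNPH2 behind it by 1.68, called. Reads that match more than 1 gene are not counted by Cell Ranger, so all levels of overlapping genes are uncertain.

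**Figure D3:**
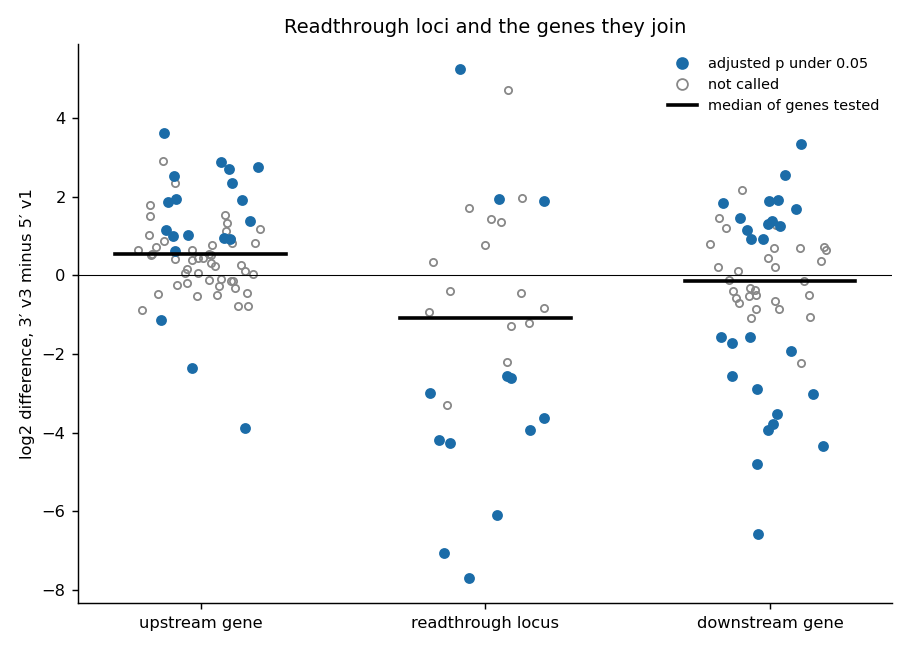
Each point is a gene tested; the vertical axis is its log2 difference, 3′ v3 minus 5′ v1, for the upstream gene, the readthrough locus and the downstream gene of the 87 loci. Filled points were called and black bars are medians. Of 28 loci tested, 10 were called below 0 (35.7%, against 7.72% of all genes) and 3 above (10.7%, against 7.45%). Loci as low as those 10 pass the filter only through the kit where they are high. The position of the locus group therefore supports no difference of the class.

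The MHC class I pathway, which loads peptides on HLA molecules for display to CD8 T cells, was alike in size with both preparations, with a median of 0.58 with F and 0.65 with G. Of 13 tested genes, 5 were called higher in 3′ v3 (38.5%, against 7.45% of all genes) and none lower. TAP2, a subunit of the peptide transporter, was at 25.1, 27.5, 23.9 and 25.6 CPM in 3′ v3 and at 7.73 and 7.86 CPM in 5′ v1. HLA-B was at 126, 218, 126 and 265 CPM against 77.1 and 58.0 CPM, with the higher values in G. HLA-C (257 to 355 CPM against 159 and 131 CPM), HLA-F (4.64 to 8.92 CPM against 2.87 and 2.84 CPM) and the transactivator NLRC5 (17.2 to 23.8 CPM against 12.14 and 12.04 CPM) were called but smaller than 2-fold with F, with G or with both. The light chain B2M, the most abundant member, overlapped between the kits, at 1235 to 1685 CPM and 1345 and 1147 CPM. The share of the class was 0.247%, 0.243%, 0.233% and 0.249% in 3′ v3 and 0.192% and 0.165% in 5′ v1. TALL-104 markers were also higher in 3′ v3, at 106 to 173 CPM against 70.1 and 71.9 CPM in 5′ v1. Within 3′ v3 these markers were higher in F than in G. The 5 called genes were lower in F than in G in CPM, though not all of them on the fitted log2 scale. The part of the markers in this result was not tested.

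The longer list of TALL-104 cytotoxic genes had medians of 1.40 with F and 0.55 with G. These are a description only, since its genes NKG7, CST7 and CD8A had set the limit for cells, and a gene such as KLRB1 passed the filter only through 3′ v3. Of 16 tested, 4 were called, all higher in 3′ v3, where 7.45% of all genes were called. The natural killer receptor KLRB1 was at 1.73, 8.92, 2.44 and 13.7 CPM in 3′ v3 (254 UMIs in all) and had no UMI in 5′ v1, so it was at least 34.7-fold higher in 3′ v3, with 3 UMIs over both 5′ v1 libraries as the floor. GZMK, a granzyme, was at 1.66, 4.46, 2.69 and 4.84 CPM against 0.0766 and 0.418 CPM. The list's most abundant gene, the protease CTSW, was not called, at 51.4, 26.8, 46.6 and 23.9 CPM against 15.5 and 13.1 CPM. Whether these UMIs lay in Jurkat cells was not tested.

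The nuclear noncoding RNAs had the largest median of all with G, 1.59, and 0.48 with F. Only NEAT1, the scaffold of paraspeckles, was called of 8 tested (12.5%, against 7.45% of all genes). It was at 250 and 268 CPM in F, 632 and 795 CPM in G, and 99.4 and 114 CPM in 5′ v1. MALAT1, the most abundant, was at 4939 and 5980 CPM in F, 14445 and 16885 CPM in G, and 3200 and 3465 CPM in 5′ v1, and was not called. Both RNAs stood in the order G, F, 5′ v1 in every library. The mitochondrial share was also highest in G, and its part in the order was not tested. In 3′ v2 NEAT1 was at 121 CPM and MALAT1 at 10248 CPM.

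Clone-named loci are annotated only by the name of a genomic clone, and most are noncoding RNAs or pseudogenes. They made up 35.1% of the genes retained as higher in 3′ v3 and 26.2% of those higher in 5′ v1, against 11.3% of all genes tested. Of 1588 tested, 281 were called higher in 3′ v3 (17.7%, against 7.45% of all genes) and 176 higher in 5′ v1 (11.1%, against 7.72%). Its median was 0.36 with F and 1.08 with G. The loci were mostly very low, with a median level of 1.21 CPM, and a low locus passes the filter more easily when it is high in 1 kit, so these shares and medians support no difference of the class. Among loci with at least 50 UMIs in every library of a kit the median was −0.20, the other direction, and with a mitochondrial limit of 5% it was −0.0098. CTC-425F1.4 was at 4.19, 3.72, 3.66 and 5.41 CPM in 3′ v3 and had no UMI in 5′ v1, at least 49.4-fold higher. CTD-3214H19.4 was at 0.866 and 1.86 CPM in F only, and had no UMI in G or 5′ v1. The most abundant, RP11-620J15.3, was at 161 to 251 CPM in 3′ v3 and 185 and 194 CPM in 5′ v1. The class share was 0.473% and 0.489% in F, 0.845% and 0.840% in G, and 0.515% and 0.571% in 5′ v1, so that F lay below and G above 5′ v1.

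The cytosolic tRNA synthetases, which charge tRNAs with amino acids, and the glycolytic enzymes were alike by their medians with few or no single genes called. The synthetases had medians of 0.62 with F and 0.37 with G and a share of 0.231% to 0.237% in 3′ v3 against 0.176% and 0.155%. Only 1 of 23 (4.35%, against 7.45% of all genes), the seryl synthetase SARS, was called, at 87.2, 114, 97.7 and 114 CPM against 53.3 and 48.3 CPM. The abundant FARSA was at 232 and 219 CPM in F, 117 and 92.3 CPM in G, and 183 and 138 CPM in 5′ v1. Glycolysis had medians of 0.46 and 0.54 and no called gene of 23, against 15.2% of all genes. PGK1 was at 636 to 830 CPM in 3′ v3 and 427 and 274 CPM in 5′ v1, and ENO1 at 814 to 1027 CPM and 565 and 370 CPM. GAPDH, the most abundant, was at 6168 and 5757 CPM in F, 3120 and 3072 CPM in G, and 6719 and 5359 CPM in 5′ v1. The share of the class overlapped between the kits, at 0.828% to 1.44% and 0.970% and 1.23%.

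**Figure D4:**
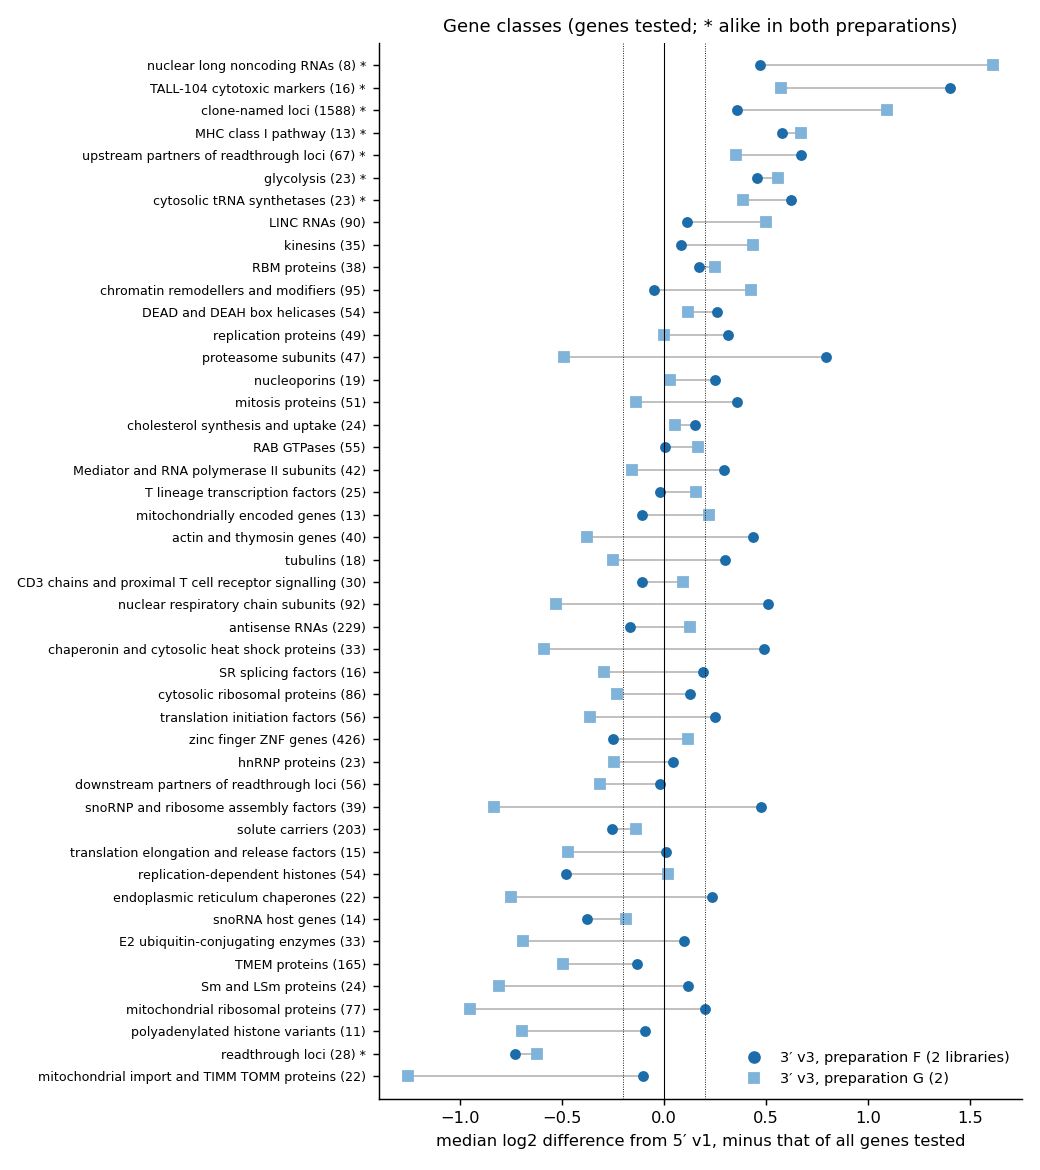
Median log2 difference from 5′ v1, minus the median of all genes tested, for the 46 classes with at least 5 genes tested (number in brackets), with preparation F as circles and G as squares. Dotted lines mark −0.2 and 0.2; the 8 classes with a star lie beyond the same line with both preparations, such as MHC class I at 0.58 and 0.67, while the proteasome lies at 0.80 and −0.49.

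Other classes did not hold in both preparations. In 9 classes the median lay above that of all genes by at least 0.2 with F and below it by at least 0.2 with G, and in no class was it the other way round. The proteasome subunits had medians of 0.80 with F and −0.51 with G, the nuclear subunits of the respiratory chain 0.52 and −0.55, the factors of ribosome assembly 0.48 and −0.85, the chaperonin and heat shock proteins 0.49 and −0.60, and the mitochondrial ribosomal proteins 0.21 and −0.97. The nuclear respiratory chain took 2.95% and 3.05% of UMIs in F, 1.93% and 1.86% in G, and 2.41% and 2.19% in 5′ v1. A kit difference for these classes therefore had no common direction.

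Single members of such classes still stood apart with both preparations, and those named here and in the families that follow were chosen after their values were seen. PSMA2, a subunit of the proteasome core, was at 110, 59.5, 111 and 47.8 CPM in 3′ v3 and 6.43 and 7.77 CPM in 5′ v1. PSMA6, of the same ring, was at 41.8, 47.6, 72.7 and 49.3 CPM against 190 and 172 CPM, and the assembly chaperone PSMD9 at 29.7 to 39.8 CPM against 106.5 and 105.5 CPM. These 3 were the only called genes of the 47 proteasome genes tested, 2.13% higher in 3′ v3 and 4.26% higher in 5′ v1, against 7.45% and 7.72% of all genes. Of 92 respiratory chain genes, 7 were called higher in 3′ v3 (7.61%, against 7.45% of all genes) and 2 higher in 5′ v1 (2.17%, against 7.72%). NDUFB1, a small subunit of complex I, was at 204, 219, 381 and 229 CPM against 57.5 and 46.9 CPM. ATP5I, of the ATP synthase, was at 224, 175, 467 and 198 CPM against 65.1 and 53.2 CPM.

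The cytosolic ribosomal proteins took a like share of UMIs in both kits, 22.5% to 24.97% in 3′ v3 and 23.5% and 23.3% in 5′ v1, and single members differed. Of 86 tested, 11 were called higher in 3′ v3 (12.8%, against 7.45% of all genes) and 1 higher in 5′ v1 (1.16%, against 7.72%). RPS29 was at 1261, 2463, 2341 and 2696 CPM in 3′ v3 and 302 and 251 CPM in 5′ v1, a log2 difference of 2.89 ± 0.33 that was equal in size with F (2.83) and G (2.95). RPS27 was at 2395 to 4713 CPM against 1176 and 1032 CPM, RPL38 at 985 to 1484 CPM against 456 and 370 CPM, and RPL23 at 1324 to 2977 CPM against 669 and 569 CPM. RPL37A and RPL37 were also retained, and RPS20, RPS28, RPL34 and RPL39 were called but smaller than 2-fold with F, with G or with both. RPS27, RPS28, RPS29, RPL37, RPL38 and RPL39 encode some of the smallest proteins of the ribosome, but size was not compared over the 86 genes. The class median was 0.13 with F and −0.25 with G. RPLP0, the large protein at the base of the ribosomal stalk, was the only gene of the class called higher in 5′ v1. It was at 2232, 2957, 1948 and 2755 CPM in 3′ v3 and 6923 and 7655 CPM in 5′ v1.

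Replicate 1 of 3′ v3 had the lowest level of the 4 libraries for RPS29, RPS27, RPL38, RPL37, RPL37A, RPL39, RPL34, RPL23, RPS20 and RPS28. Replicate 3, a capture of the same mixture, was close to the G libraries for RPS29, RPL38 and RPL39. The 3′ v2 library was higher again, with 7580 CPM for RPS29, 14050 CPM for RPS27 and 5227 CPM for RPL38, and all ribosomal proteins together took 35.9% of its UMIs. It was at the 3′ v3 level for RPLP0 (2192 CPM). Ribosomal protein genes have many processed pseudogenes. Reads that match both a gene and a copy listed as a gene in the reference were not counted, and the extent of this was not tested.

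The mitochondrial genome encodes 13 proteins, all subunits of the respiratory chain and the ATP synthase, and most of their mRNAs carry short poly(A) tails, with MT-ND6 as the known exception. As a class they overlapped between the kits, with 4.86% to 8.46% of UMIs in 3′ v3 and 4.75% and 5.63% in 5′ v1, a measure that the limit on cells used. Of the 13, 2 were called higher in 3′ v3 (15.4%, against 7.45% of all genes) and 1 higher in 5′ v1 (7.69%, against 7.72%). MT-ND3 was at 3473, 5221, 4410 and 5274 CPM in 3′ v3 and 835 and 757 CPM in 5′ v1 (2.45 ± 0.24, with F 2.44 and with G 2.45). MT-ND4L and MT-ND4 lie one behind the other on a single mRNA. MT-ND4L, in front, was at 185, 354, 400 and 363 CPM in 3′ v3 and 2008 and 2572 CPM in 5′ v1. MT-ND4 was at 5873, 9371, 4936 and 9038 CPM in 3′ v3 and 2132 and 2602 CPM in 5′ v1.

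Of the UMIs of this mRNA, MT-ND4L took 48.5% and 49.7% in 5′ v1 but 3.06%, 3.64%, 7.50% and 3.86% in 3′ v3 and 13.7% in 3′ v2. The second such pair moved in the same sense without being called. MT-ATP8, in front of MT-ATP6, took 5.32% and 5.43% of the pair's UMIs in 5′ v1 and 0.493%, 1.05%, 3.68% and 1.18% in 3′ v3. Its level was 325 and 392 CPM in 5′ v1 and 43.1, 120, 249.8 and 126 CPM in 3′ v3. The libraries did not overlap, as in 46.4% of all genes tested. MT-CO1, MT-CO2, MT-ND1 and MT-ND6, each with a log2 difference between 0.01 and 0.07, overlapped between the kits.

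**Figure D5:**
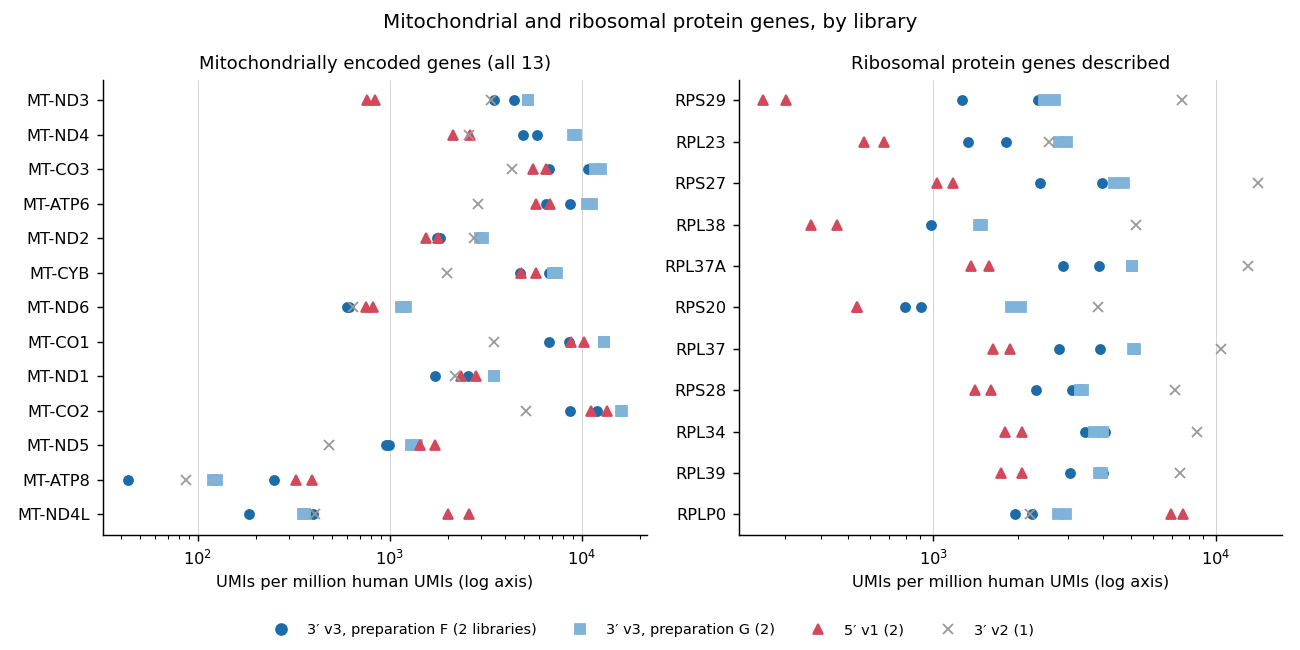
CPM on a log axis for the 13 mitochondrially encoded genes and for 11 ribosomal protein genes described in the text, 1 point per library (circles F and squares G of 3′ v3, triangles 5′ v1, cross 3′ v2). MT-ND4L lies far to the right in 5′ v1 and MT-ND4 to the right in 3′ v3, and RPLP0 is the only ribosomal gene shown with 5′ v1 above 3′ v3.

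The replication-dependent histones, whose mRNAs mostly end in a stem-loop in place of a poly(A) tail, had called members in both directions. Of 54 tested, 5 were called higher in 3′ v3 (9.26%, against 7.45% of all genes) and 7 higher in 5′ v1 (12.96%, against 7.72%), all of them retained. HIST1H4C, by far the most abundant, was at 1843, 1688, 2428 and 2385 CPM in 3′ v3 and 648 and 501 CPM in 5′ v1, and at 5905 CPM in 3′ v2. HIST1H2AM was at 15.9, 46.1, 62.6 and 77.5 CPM against 4.71 and 3.85 CPM, and HIST1H2AJ at 12.4, 78.1, 56.8 and 87.7 CPM against 5.05 and 3.43 CPM. HIST2H2AA3 and HIST2H4A, also higher in 3′ v3, were low, as were all 7 genes higher in 5′ v1. HIST3H2A was at 0.743 to 3.13 CPM against 10.0 and 9.61 CPM, HIST1H2AB at 1.17 to 1.99 CPM against 9.04 and 6.52 CPM, and HIST2H3D at 0.104 to 0.762 CPM against 5.40 and 5.94 CPM. Histone genes are near copies of each other, so their counts are uncertain.

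Genes of T cell identity are those of the receptor complex and of the lineage factors. Of 30 genes of the CD3 complex and its proximal signalling, 3 were called (10.0%, against 7.45% of all genes higher in 3′ v3 and 7.72% higher in 5′ v1), all higher in 3′ v3 and all smaller than 2-fold with at least 1 preparation. CD2, an adhesion receptor, was at 146, 167, 164 and 191 CPM against 88.6 and 78.2 CPM. The phosphatase PTPRC (CD45) was at 310, 446, 352 and 464 CPM against 184.4 and 180.5 CPM, and the exchange factor VAV1 at 44.9 to 64.7 CPM against 31.8 and 29.1 CPM. The CD3 chains were not called. CD3E was at 457 to 558 CPM in 3′ v3 and 674 and 614 CPM in 5′ v1, CD3D at 915 to 1367 CPM and 855 and 762 CPM, and CD3G at 409 to 581 CPM and 337 and 326 CPM. CD3D and CD3G also differed between F and G, by 0.91 and 0.73 on the log2 scale. Of 25 transcription factors of the T lineage, TCF3, ID2 and RUNX3 were called higher in 3′ v3, 12% of them. TALL-104 markers, which come from another T cell line, were also higher in 3′ v3 (106 to 173 CPM, against 70.1 and 71.9 CPM in 5′ v1). Within 3′ v3 these markers were higher in F (173 and 153 CPM) than in G (110 and 106 CPM). The called genes of both lists were lower in F than in G in CPM, though not all of them on the fitted log2 scale. The part of the markers was not tested. RUNX3 was at 11.1, 32.0, 13.4 and 29.3 CPM against 5.74 and 7.27 CPM.

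Of 56 translation initiation factors tested, 2 were called in each direction (3.57%, against 7.45% of all genes higher in 3′ v3 and 7.72% higher in 5′ v1). Of 15 elongation and release factors, 1 was called higher in 3′ v3 (6.67%) and 2 higher in 5′ v1 (13.3%). Neither class was alike in both preparations. PABPC1, the poly(A)-binding protein, and EEF1G, an elongation factor, were chosen after their values were seen and do not stand for translation genes as a whole. PABPC1 was at 534, 698, 475 and 661 CPM in 3′ v3 and 1376 and 1519 CPM in 5′ v1, a log2 difference of −1.36 ± 0.21 that was the same with F (−1.38) and G (−1.35). EEF1G was at 0.832 to 4.92 CPM against 21.7 and 21.0 CPM. Its 3′ v3 levels rest on 24, 5, 291 and 16 UMIs in replicates 1 to 4.

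Genes seen from 1 end only were counted among those tested, which leaves out the low genes that the filter removed. Of the 14045 genes tested (32738 human genes are in the reference), 7 had no UMI in any 3′ v3 library and 60 had none in 5′ v1, where the floor of 3 UMIs corresponds to 0.0323 CPM over 3′ v3 and 0.0788 CPM over 5′ v1. Of the 7, AL807752.1 had the most UMIs in 5′ v1, 152, and was at least 123-fold higher there. RP11-87F15.2 followed with 74 UMIs, at least 60.1-fold higher, and SYS1-DBNDD2 and ABHD14A-ACY1 were also among them. Of the 60, CTC-425F1.4 with 361 UMIs and KLRB1 with 254 UMIs in 3′ v3 led, and the bounds fell to 2.05-fold. All of the 7 were called, but not all of the 60. Each of these genes passed the filter only through the kit where it was high. The libraries of 3′ v3 also held more UMIs together (9.28e+07) than those of 5′ v1 (3.81e+07), so these counts support no difference between the ends. At or under the floor in the lower kit lay 130 of the 775 and 25 of the 564 retained genes. Of the 564, 76 had no UMI in either library of G, so the size of their difference with G is not firm.

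The number of genes seen in a cell at equal depth was compared as a measure that the choice of genes did not use. With every cell thinned to 2000 human UMIs, which left out no cell, the median cell held 1094, 1105, 1115 and 1098 genes in replicates 1 to 4 of 3′ v3 and 1122 and 1127 genes in 5′ v1. The means were 1103 ± 9.20 (SD, n = 4) and 1124.5 ± 3.54 (SD, n = 2), a difference of −21.5 genes that was −20.0 with F and −23.0 with G. The groups did not overlap. At 1000 UMIs the difference was −9. With a mitochondrial limit of 5% it was −0.875, as the medians became 1094.5, 1145, 1122 and 1145 genes in 3′ v3 and 1128 and 1127 genes in 5′ v1, so that both G libraries, with only 4 and 19 cells left, lay above 5′ v1. For the 10% limit, a two-sided exact permutation of the libraries gave p = 0.0667, which is as small as 4 against 2 libraries allow, or 0.133 adjusted over the 3 cell measures compared. The other 2 measures, median UMIs and the mouse share, gave p = 0.133 each in the same exact test before adjustment. Without thinning, the median cell held 4390, 3601.5, 4401 and 3426 genes in 3′ v3 and 4673 and 4775 genes in 5′ v1. In the 3′ v2 library 946 genes were seen at 2000 UMIs.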

How the data were processed

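The authors deposited UMI counts without normalization for each gene and barcode, made with Cell Ranger 3.0.2 against a combined hg19 and mm10 reference, after downsampling the reads of each library. Here the barcodes were selected by the limits above, the UMI counts of human genes were summed per library, and the sums were tested in edgeR 4.0.16 (quasi-likelihood, TMM scaling, filterByExpr, Benjamini-Hochberg over all genes tested, R 4.3.3). Differences for F and G came from a second edgeR model with mixture as the group. Each SE is the size of the log2 difference divided by the square root of the F statistic of its test. The scripts were tested on simulated data. CPM were taken over the human UMIs of a library. No doublet caller was run: the limit of 80% removes only pairs across species with at least 20% mouse UMIs, and pairs of Jurkat cells cannot be seen. The cell limits, gene classes and lists were chosen with earlier results of these data known. Named genes were the 10 strongest retained genes per direction with at least 50 CPM, in each class alike the 2 strongest called members and the most abundant one, and the 3 strongest partners of readthrough loci; all other genes were chosen after their values were seen. Classes set by symbol also take in antisense genes with a matching symbol. Alternatives were DESeq2 1.42.0, RLE scaling, other filters and cell limits, thinning and leaving out libraries. Of 3′ v2 only replicate 2 was used, and no annotation of hg19 was used here, so no positions or sequences are given. Of the called ribosomal protein genes, 1 is not reported here.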

Additional observations from a re-analysis of the deposited data

Results flagged for a closer look

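In 10 of 176 values checked over the 4 libraries of 3′ v3, 1 library lay far from the other 3 by Dixon's test, and chance alone flags about 1 in 20. Replicate 3 was the high one for ATP5I (467 CPM, the others 175 to 224), NDUFB1 (381 CPM, 204 to 229), NME1-NME2 (217 CPM, 28.8 to 49.1), PDF (5.18 CPM, 1.49 to 1.71) and ISY1 (51.4 CPM, 43.6 to 44.8). Replicate 1 was the low one for RPL38 (985 CPM, 1451 to 1484), RPL39 (3053 CPM, 3858 to 3981), HIST2H2AA3 (1.98 CPM, 8.92 to 9.40) and HIST1H3H (1.91 CPM, 2.85 to 2.97). Replicate 2 was the high one for DNAJC25, at 15.6 CPM against 9.22 to 9.56 CPM, which rests on 21 UMIs.

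In 7 of the 9 classes whose medians lay at least 0.2 above that of all genes with F and at least 0.2 below it with G, the median difference of each single F library from the 5′ v1 mean, on the scale log2(CPM + 1), also lay above 0 and that of each single G library below 0. This difference was not tested for the class. The median log2 differences were 0.21 with F and −0.97 with G for the mitochondrial ribosomal proteins, 0.26 and −0.38 for the translation initiation factors, 0.48 and −0.85 for the factors of ribosome assembly, 0.52 and −0.55 for the nuclear respiratory chain subunits, 0.80 and −0.51 for the proteasome, 0.49 and −0.60 for the chaperonin and heat shock proteins, and 0.44 and −0.40 for the actin and thymosin genes.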

How the results depend on the processing

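No paired analysis was possible because replicate numbers name libraries of different mixtures in the 2 kits. The 2130 calls stayed within 1.5 times under RLE scaling, no filter, 6000 UMIs per cell, DESeq2 (2930 calls, 1607 of them higher in 3′ v3), a mitochondrial limit of 5% (1582 higher in 3′ v3) and without mitochondrial and ribosomal genes. Requiring 50 UMIs in every library of a kit left 1173 calls (571 on the 3′ v3 side, 602 on the 5′ v1 side), and thinning all libraries to the smallest left 549 (299 and 250). Where the spread was taken within mixtures 8665 genes were called (4170 and 4495), with F alone 8165 (4107 and 4058) and with G alone 8088 (3958 and 4130). Leaving out a library gave 93 to 2928 calls (24 to 1398 and 69 to 1530). The 1339 retained genes became 559 (289 and 270) with 50 UMIs, 811 (485 and 326) at 5%, 481 (277 and 204) after thinning, 594 (376 and 218) with at least 2 on the log2 scale, a limit chosen after seeing the data, and 93 to 1438 (24 to 828 and 69 to 610) without a library. The 8 classes became 13 with 50 UMIs and 15 with medians of at least 0.1, also chosen after seeing the data. The calls between F and G fell to 1911 at 5%, where only 4 and 19 cells of G remain. The clone-named median turned to −0.203 with 50 UMIs and −0.00978 at 5%, and that of readthrough loci to 0.323 at 5%. HSPE1 turned to 0.544 with F alone and FARSA to −0.865 with G alone. The causes were not tested, except that thinning and leaving out libraries reduce the data. Over named genes, 1723 of the values kept direction and call, 236 lost and 88 gained the call and 2 reversed. The small sums of G limit levels under about 1 CPM.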
